A study of Drosophila melanogaster with 2 samples.

Results

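The 10 genes described here encode the nicotinic acetylcholine receptor subunits of Drosophila melanogaster, the alpha subunits nAChRalpha1 to nAChRalpha7 and the beta subunits nAChRbeta1 to nAChRbeta3. They were taken by name as a gene family, with no measured value in the rule but with earlier results of these data known, and 9 of the 10 were matched among the 12083 genes listed in either table. The current FlyBase identifier of nAChRalpha4 matched no listed gene, and this subunit therefore has no value here. Its reads could still stand under one of the 496 listed identifiers without a matched symbol. Every family total below is the total of the 9 matched subunits.

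RNA was sequenced from whole heads of adult flies of the strain w1118, a white-eyed laboratory stock, with 1 library per diet. The control group received a standard diet, and the other group received that diet plus sucralose, a sweetener made by chlorinating sucrose. Both were kept on their diets for 6 days, beginning at an age of 4 to 7 days, and were 10 to 14 days old at collection. The sources used here do not give sex, the number of heads pooled or the sucralose dose. By its title, the study concerned sucralose, food intake, NPY and a fasting response in neurons, and it does not name the nicotinic subunits. With 1 library per diet there is no spread between replicates, and no p-value is given for any difference. The control library held 10.3 M and the sucralose library 10.4 M unique reads, which limits the precision mainly for the rare subunits. All intervals are 95% intervals that cover counting error only, and all comparisons are between these 2 libraries.

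Nicotinic receptors are the main fast excitatory receptors of the insect brain, where acetylcholine is the principal excitatory transmitter of central and sensory neurons. Each receptor is a ring of subunits around a cation pore and belongs to the cys-loop family, which also holds the chloride channels gated by GABA, glutamate and histamine. Alpha subunits carry a pair of adjacent cysteines at the acetylcholine site and beta subunits lack it. The same receptors are the targets of neonicotinoid and spinosyn insecticides.

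Levels are given as reads per kilobase of gene model and per 1 M reads (RPKM), as deposited. nAChRbeta1 (FBgn0000038) was the most abundant subunit RNA by a wide margin. This gene encodes the beta subunit that is known as a neonicotinoid target, counted here with 5212 control reads and 4634 sucralose reads, or 206 RPKM (201 to 212) and 181 RPKM (175 to 186). It stood above 97.0% of listed genes in the control library and above 96.7% in the sucralose library. Its level was 4.09 times that of the second subunit in the control library (3.89 to 4.31) and 4.27 times in the sucralose library (4.04 to 4.51).

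The second place in both libraries belonged to nAChRalpha7 (FBgn0086778), a subunit required for the giant fibre escape circuit. It had 2140 control and 1824 sucralose reads, or 50.4 RPKM (48.3 to 52.6) and 42.3 RPKM (40.4 to 44.3). Its level was 1.62 times that of the next subunit down in the control library (1.53 to 1.72) and 1.37 times in the sucralose library (1.29 to 1.45). This lead depended on the length used, as given below.

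The next 3 subunits formed a group whose levels were within counting error of the next member of that group. nAChRalpha6 (FBgn0032151), the target of the insecticide spinosad, had 2419 and 2437 reads, or 31.1 RPKM (control) and 30.8 RPKM (sucralose). nAChRalpha5 (FBgn0028875), its close relative, had 2909 and 2947 reads over a longer gene model, or 31.0 RPKM in both libraries. nAChRalpha2 (FBgn0000039) had 739 and 705 reads, or 30.2 RPKM and 28.4 RPKM. In the control library the ratio of nAChRalpha6 to nAChRalpha5 was 1.001 (0.948 to 1.06) and that of nAChRalpha5 to nAChRalpha2 was 1.03 (0.946 to 1.11). In the sucralose library nAChRalpha5 and nAChRalpha6 changed places, at a ratio of 1.005 (0.952 to 1.06). There the ratio of nAChRalpha6 to nAChRalpha2 was 1.08 (0.997 to 1.18), while that of nAChRalpha5 to nAChRalpha2, which are not neighbours in that order, was 1.09 (1.003 to 1.18).

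By the deposited gene model, the 4 lowest subunits were each separated from their neighbours by more than counting error in both libraries. nAChRbeta2 (FBgn0004118), in which mutations give resistance to the neonicotinoid nitenpyram, had 785 control and 690 sucralose reads, or 19.0 RPKM (17.7 to 20.4) and 16.5 RPKM (15.3 to 17.8). nAChRbeta3 (FBgn0031261), the most divergent member of the family, had 155 and 144 reads, or 9.85 RPKM (8.36 to 11.5) and 9.01 RPKM (7.60 to 10.6). All exon bases of nAChRbeta3 are also exon bases of Ets21C, a transcription factor gene on the opposite strand, in the BDGP6.54 annotation. The sources used here do not say whether counting used the strand, so the reads of nAChRbeta3 are not certain to be its own. Ets21C itself was listed with 33 control and 35 sucralose reads, or 1.33 RPKM and 1.39 RPKM.

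nAChRalpha1 (FBgn0000036), another subunit in which mutations give nitenpyram resistance, had 236 and 227 reads, or 6.62 RPKM (5.81 to 7.53) and 6.27 RPKM (5.48 to 7.15). nAChRalpha3 (FBgn0015519) was the lowest of the 9, with 104 control and 134 sucralose reads, or 3.59 RPKM (2.93 to 4.35) and 4.55 RPKM (3.81 to 5.39). From the highest to the lowest subunit the levels spanned 57.5-fold in the control library (47.4 to 70.5) and 39.7-fold in the sucralose library (33.4 to 47.5). The order of the 9 was the same in both libraries at 7 places, and the exceptions were nAChRalpha5 and nAChRalpha6. Of the 8 neighbour pairs in each order, 2 had a ratio whose interval included 1.

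**Figure D1:**
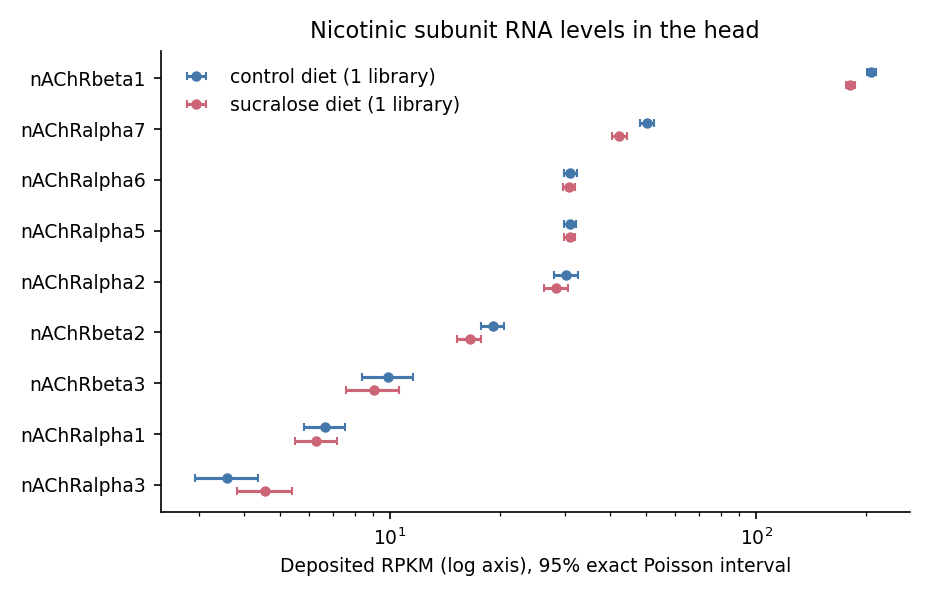
Deposited RPKM on a log axis for each of the 9 matched subunits, with 1 point per library and 95% exact Poisson intervals for counting error. nAChRbeta1 lies at 206 RPKM and 181 RPKM, 3 alpha subunits lie together near 30.2 to 31.1 RPKM in the control library, and nAChRalpha3 is lowest at 3.59 RPKM and 4.55 RPKM.

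Reads covered most of each gene model, including those of the rare subunits. The deposited coverage was 99.2% and 99.8% of bases for nAChRbeta1, and 99.1% and 98.2% for nAChRalpha5, whose model is the longest of the family at 9129 bases. Coverage was lowest for nAChRalpha3, at 81.7% in the control library and 88.4% with sucralose. The other 6 subunits lay between 89.8% and 99.5%. These values are totals per gene and do not show which splice forms were read.

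Summed over the 9 matched subunits, the family reached 388 RPKM (control) and 349 RPKM (sucralose). nAChRbeta1 supplied 53.2% and 51.7% of that sum, nAChRalpha7 12.98% and 12.1%, and nAChRalpha3 0.924% and 1.30%. The 3 beta subunits together made up 60.6% and 59.0%, and the 6 matched alpha subunits 39.4% and 41.0%. This majority turned around when reads were divided by the longest coding sequence of the BDGP6.54 annotation in place of the deposited gene model. The alpha subunits then made up 53.59% of the control and 55.55% of the sucralose sum, and nAChRbeta1 39.1% and 37.5%.

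The coding length also changed the order, since the deposited models of nAChRalpha5 and nAChRalpha6 hold 9129 and 7585 bases, of which the longest coding sequences span 2511 and 1569. Per kilobase of coding sequence, nAChRalpha6 came second with 150.1 and 148.9 reads per kilobase and per 1 M reads, ahead of nAChRalpha7 with 123.2 and 103.4 and nAChRalpha5 with 112.8 and 112.5. nAChRbeta1 stayed first on that scale, at 324.7 and 284.3, and nAChRalpha3 last, at 4.25 and 5.39. Only 3 of the 9 subunits kept their place in each library. nAChRalpha1 and nAChRbeta3 were then within counting error, at a ratio of 1.12 (0.915 to 1.39) in the control and 1.16 (0.941 to 1.45) with sucralose. The ratio of nAChRbeta2 to nAChRalpha2 was 1.18 in the control (1.06 to 1.31) and 1.09 with sucralose (0.977 to 1.21). Reads outside the coding sequence are counted in the deposited totals, so the coding scale overstates genes with long untranslated ends.

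**Figure D2:**
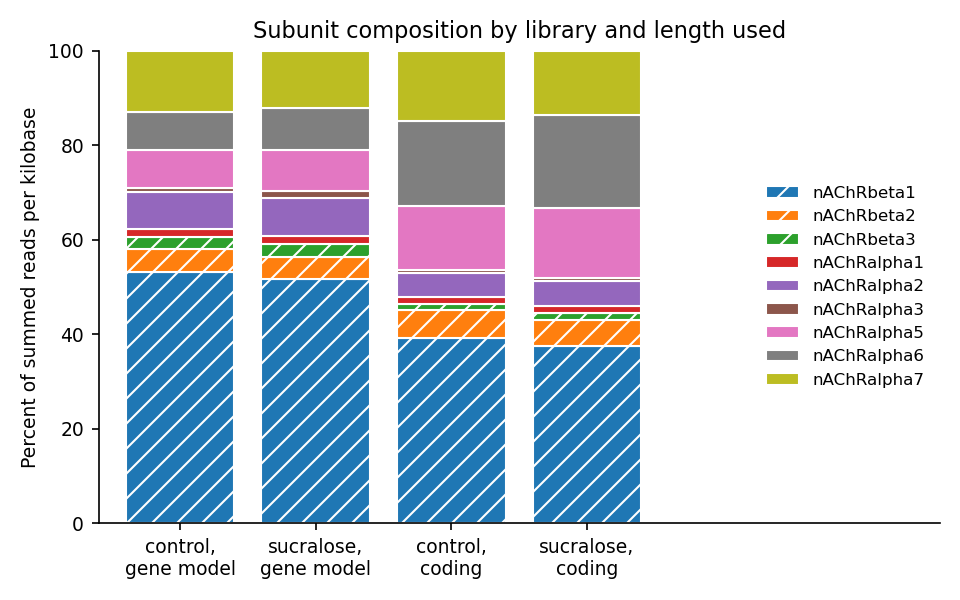
Share of each subunit in the summed reads per kilobase of the 9 matched subunits, by library, with reads divided by the deposited gene model (left pair of bars) or by the longest coding sequence (right pair); hatched bars are beta subunits. nAChRbeta1 takes 53.2% and 51.7% by gene model and 39.1% and 37.5% by coding length.

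For 2 of the rarest subunits the deposited gene model is much shorter than the longest current transcript. The model of nAChRalpha1 holds 3469 bases against 11027 for its longest transcript in BDGP6.54, and that of nAChRalpha3 holds 2823 against 10506. By the longest current transcript, the reads of nAChRalpha1 came to 2.08 and 1.97 per kilobase and per 1 M reads, and those of nAChRalpha3 to 0.964 and 1.22. The model of nAChRalpha7 is also shorter, with 4135 bases against 5607. By the longest transcript, nAChRalpha7 was 1.20 times nAChRalpha6 in the control library (1.13 to 1.27). In the sucralose library it was 1.01 times nAChRalpha5 (0.950 to 1.07), within counting error. Whether reads in the longer ends were counted is unknown. The deposited length equals that of a current transcript for 3 subunits, nAChRalpha5, nAChRbeta1 and nAChRbeta3.

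By the BDGP6.54 annotation, nAChRalpha3 and nAChRalpha7 lie far apart on the X chromosome. nAChRalpha5, nAChRalpha6 and nAChRbeta3 are on arm 2L and nAChRbeta1 and nAChRalpha4 on arm 3L. The remaining 3, nAChRalpha1, nAChRalpha2 and nAChRbeta2, follow each other on arm 3R, with gaps of 28.3 kb and 18.1 kb and with 1 other protein-coding gene, CG31128, between the first pair. The levels of these neighbours differed, nAChRalpha2 being 4.57 times nAChRalpha1 in the control library (3.94 to 5.31) and 4.53 times in the sucralose library (3.89 to 5.28). nAChRbeta2 was 2.88 times nAChRalpha1 in the control (2.48 to 3.34) and 2.63 times with sucralose (2.26 to 3.07).

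None of the 9 subunits, all of which passed the floor of 50 reads summed over both libraries, differed by 1.5-fold, the size used here in place of a test. Of 8889 genes over that floor, 6.07% passed this size in either direction, 1.96% upward and 4.12% downward with sucralose. A count of 0 among 9 genes is near that background and is no result about the family. Scaled to neuronal marker reads in place of all genes, 269 genes were higher and 291 lower by that size, against 174 and 366, and the median of all genes shifted to 0.07 on the log2 scale.

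**Figure D3:**
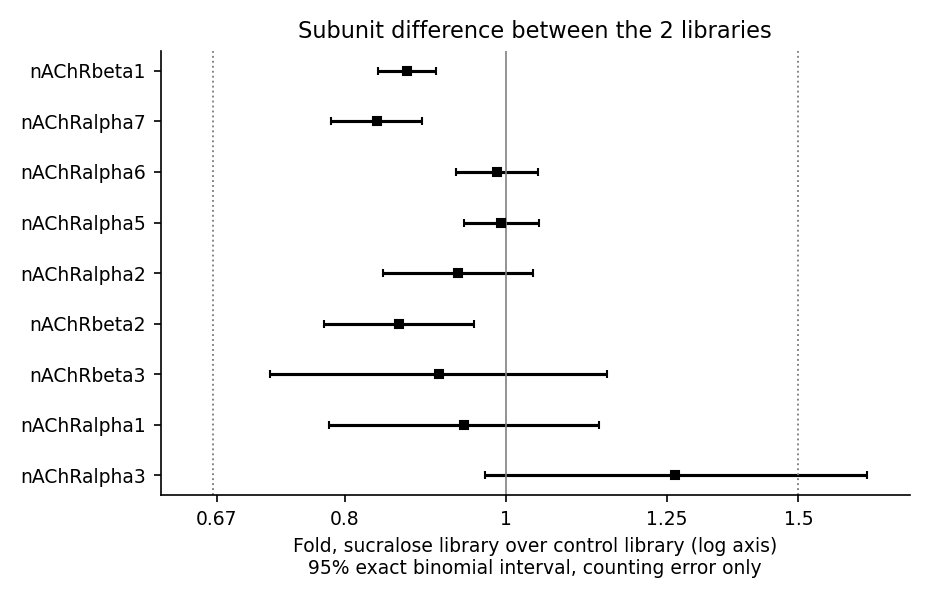
Fold of scaled reads, sucralose library over control library, on a log axis for the 9 matched subunits, with 95% exact binomial intervals for counting error. The solid line marks no difference and the dotted lines mark 1.5-fold in each direction; all 9 points lie between the dotted lines, and the intervals of nAChRbeta1, nAChRalpha7 and nAChRbeta2 lie below 1.

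For nAChRbeta1, the sucralose library held 0.872 times the control reads after scaling (0.838 to 0.908). nAChRalpha7 was at 0.836 (0.785 to 0.890) and nAChRbeta2 at 0.862 (0.777 to 0.956). These 3 were the subunits whose interval lay below 1, and none had an interval above 1. Counting intervals below 1 were found for 19% of all genes over the floor and intervals above 1 for 17.3%. These intervals hold no variation between flies or between library preparations.

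nAChRalpha5 and nAChRalpha6 had folds close to 1, at 0.994 (0.944 to 1.05) and 0.988 (0.934 to 1.05). nAChRalpha1 was at 0.944 (0.783 to 1.14), nAChRalpha2 at 0.936 (0.843 to 1.04) and nAChRbeta3 at 0.911 (0.721 to 1.15). nAChRalpha3 was the one subunit above 1, at 1.26 (0.971 to 1.65), an interval that reaches past 1.5-fold and rests on few reads. These 6 intervals include no difference.

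The median log2 difference of the 9 subunits, sucralose minus control, was -0.10, against 0.00 for all 8889 genes over the floor. Of the 9, 8 were below 0, as were 50.4% of those genes. This count depends on the scaling, since nAChRalpha5 and nAChRalpha6 lay at only -0.009 and -0.017. Median-ratio scaling put nAChRalpha5 at 0.004, and scaling by neuronal marker reads put these 2 at 0.068 and 0.06. The reads of the 9 subunits summed to 14699 in the control (0.143% of the library) and 13742 in the sucralose library (0.132%). The fold of these sums was 0.917 (0.896 to 0.939). The alpha subunits summed to a fold of 0.950 (0.921 to 0.979) and the beta subunits, which are mostly nAChRbeta1, to 0.872 (0.841 to 0.904). Without nAChRbeta1 the summed fold was 0.942 (0.915 to 0.969).

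The subunits also differed among themselves by more than counting error in some pairs. Of the 36 pairs, 10 had a ratio of folds whose exact conditional interval left out 1, and each of these 10 set nAChRalpha3, nAChRalpha5 or nAChRalpha6 above nAChRalpha7, nAChRbeta1, nAChRbeta2 or, in 1 pair, nAChRalpha2. The fold of nAChRalpha5 was 1.19 times that of nAChRalpha7 (1.10 to 1.29) and the fold of nAChRalpha6 was 1.18 times that of nAChRalpha7 (1.09 to 1.29). The fold of nAChRalpha3 was 1.51 times that of nAChRalpha7 (1.15 to 1.99). The intervals were not adjusted for the number of pairs. The same share over pairs of all genes was not computed, so this count is no result about the family. Intervals of single folds left out 1 for 36.3% of all genes over the floor.

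In RNA from whole heads, fewer cells of a type and less RNA per cell cannot be told apart, and markers of several cell types differed between the same libraries. The 13 matched neuronal markers had a median log2 difference of -0.14, with 9 below 0 and none past 1.5-fold, and summed levels of 2648 RPKM (control) and 2490.1 RPKM (sucralose). The most abundant was cpx, a regulator of synaptic vesicle fusion, at 0.879 (0.865 to 0.893), and the most different was the sodium pump subunit gene nrv3 at 0.711 (0.696 to 0.727). The list was mixed, with 4 markers above 0. These were Rbp9 at 1.31 (1.28 to 1.34), nSyb at 1.15 (1.12 to 1.17), CadN at 1.09 (1.03 to 1.15) and Appl at 1.07 (1.04 to 1.10). The summed reads of all 13 went from 137655 (control) to 132990 (sucralose), a fold of 0.948 (0.941 to 0.955). Those of nrv3 alone went from 19082 to 13835, a larger drop than that of the whole list. No matched neuronal marker was at 0. Over all genes past the floor, 50.4% were below 0 and 6.07% passed 1.5-fold.

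Relative to the summed reads of those neuronal markers, the subunit total was at 0.968 (0.945 to 0.991). This scale and the values on it depend on nrv3, and scaling without nrv3 was not run. On that scale nAChRbeta1 was at 0.920 (0.884 to 0.958) and nAChRalpha7 at 0.882 (0.828 to 0.940). nAChRbeta2 was at 0.910 (0.820 to 1.01), and nAChRalpha3 at 1.33 (1.02 to 1.74), the one interval above 1. nAChRalpha5 and nAChRalpha6 were at 1.05 (0.996 to 1.10) and 1.04 (0.985 to 1.10), on the other side of 1 from their values above.

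Marker lists of other cell types had larger differences. Over all genes past the floor, 1.96% were higher and 4.12% lower by 1.5-fold. All 14 photoreceptor markers were above 0, 2 of them past 1.5-fold, and they summed to 40426 RPKM (control) and 55253 RPKM (sucralose). The rhodopsin gene ninaE was the most abundant, at 1.48 (1.47 to 1.48), and Rh4 the most different, at 1.66 (1.62 to 1.69). Among the 11 glial markers, 6 were lower by 1.5-fold or more, with summed levels of 1466 RPKM and 948 RPKM. The glutamine synthetase gene Gs2 was the most abundant, at 0.652 (0.636 to 0.668), and the GABA transporter gene Gat was at 0.365 (0.335 to 0.396), level with the astrocyte gene alrm at 0.364 (0.328 to 0.404). The 5 glial markers within 1.5-fold were moody at 0.912, repo at 0.956, CG6126 at 0.984, loco at 1.02 and wrapper at 1.08. Their intervals all include 1. The muscle list had 5 of 14 markers over the floor lower by that size, with summed levels of 1815 RPKM and 1364 RPKM. Its most abundant gene, the actin gene Act57B, was at 0.921 (0.895 to 0.948), and its most different, Act88F, at 0.324 (0.217 to 0.474). All 7 gut markers over the floor were lower by that size. Each passed the floor through its control reads alone, so this count was partly fixed by the floor. Under the floor, betaTry had 20 and 10 reads and Jon25Biii 0 and 9. Summed levels of the 9 matched gut markers were 268 RPKM and 6.56 RPKM. CG12374 was the most abundant of them in the control library, with 1208 and 3 reads, while Jon99Cii and LysC were at 0 with sucralose and Jon25Biii at 0 in the control. Among 8 fat body markers over the floor, 2 were higher and 2 lower by that size, with summed levels of 671 RPKM and 685 RPKM. There apolpp was the most abundant, at 1.02 (1.003 to 1.03). Lsp2 was the most different, at 0.177 (0.118 to 0.260), although an antisense RNA gene overlaps 84.6% of its exon bases. The other lower gene was Col4a1 at 0.636 (0.591 to 0.685). The 2 higher were the yolk protein genes Yp1 at 5.54 (3.43 to 9.42) and Yp3 at 1.83 (1.65 to 2.03). An antisense RNA gene overlaps 54.3% of the exon bases of Yp1. The part of these differences in the subunit values was not tested.

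**Figure D4:**
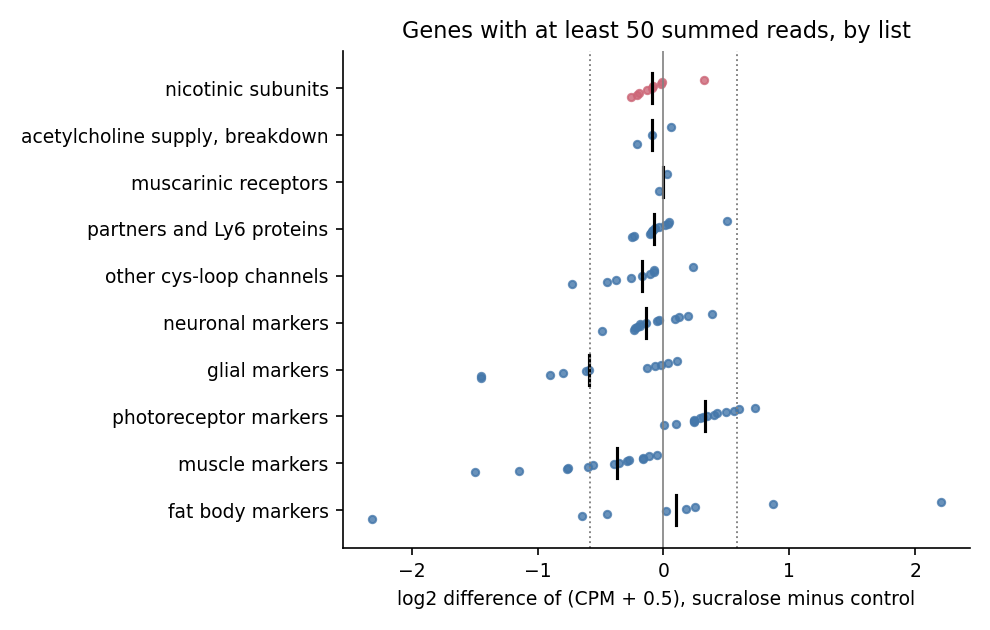
The log2 difference of (CPM + 0.5), sucralose minus control, for each gene with at least 50 summed reads, by list, with a black bar at each list's median and dotted lines at 1.5-fold; gut markers are not drawn. The 9 subunits lie between -0.26 and 0.32 (nAChRalpha3) with a median of -0.10, while glial markers reach a median of -0.59 and photoreceptor markers 0.33.

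Of 4 listed genes for the supply and breakdown of acetylcholine 3 were matched, and VAChT, the vesicular transporter gene, has no value here. None of the 3 differed by 1.5-fold, against 6.07% of all genes over the floor, which is near that background. ChAT, which encodes the enzyme of acetylcholine synthesis, had 35.6 RPKM (control) and 33.7 RPKM (sucralose), a fold of 0.941 (0.874 to 1.01). In BDGP6.54, 15.1% of its exon bases are shared with VAChT on the same strand. ChT, the choline transporter gene, was at 0.862 (0.799 to 0.930), although 69.5% of its exon bases are shared with another gene on the same strand. Ace, which encodes the acetylcholinesterase that ends the signal, was at 62.3 RPKM and 65.3 RPKM, a fold of 1.04 (0.992 to 1.10). By deposited RPKM, nAChRbeta1 was thus above all 3 of these genes, and the other subunits except nAChRalpha7 were below all 3. Levels by coding length were not computed for these 3 genes, and this order may change with the length used.

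Of the 3 G-protein-coupled muscarinic receptor genes for the same transmitter, mAChR-A and mAChR-B lay within the range of the nicotinic subunits in level and mAChR-C lay below all of them. mAChR-A had 25.1 RPKM and 25.7 RPKM, a fold of 1.02 (0.945 to 1.11), and mAChR-B had 11.5 RPKM and 11.3 RPKM, a fold of 0.976 (0.867 to 1.10). mAChR-C was listed with 3 and 7 reads, under the floor, or 0.240 RPKM and 0.551 RPKM. The summed reads of the 3 had a fold of 1.01 (0.946 to 1.08).

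Proteins that assemble, place or modulate nicotinic receptors were matched for all 12 listed genes, together with the Ly6 proteins, a family of small membrane-anchored proteins some of which bind channels. None differed by 1.5-fold, against 6.07% of all genes over the floor, which is near that background. Of the 12, 8 were below 0 and 4 above, where 50.4% of all genes were below 0. The median log2 difference was -0.08. Hasp and hig, which encode proteins of the cleft at cholinergic synapses, had 207 RPKM and 183 RPKM in the control library, close to nAChRbeta1. Their folds were 0.933 (0.910 to 0.956) and 1.02 (0.994 to 1.06). qvr, whose Ly6 product Quiver (Sleepless) promotes sleep and lowers nicotinic receptor activity, was at 187 RPKM and 179 RPKM, a fold of 0.953 (0.926 to 0.980). The Ly6 gene atilla was at 165 RPKM and 156 RPKM, a fold of 0.941 (0.873 to 1.02).

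Another 2 genes of that list are given because of their roles and were picked after their values were seen. RIC-3, a chaperone of nicotinic receptor assembly in the endoplasmic reticulum, had 1850 and 1746 reads, a fold of 0.926 (0.867 to 0.989). Unc50, whose counterpart in Caenorhabditis elegans is needed for nicotinic receptors to reach the cell surface, had 129 and 189 reads, a fold of 1.44 (1.14 to 1.81). It was the most different member of that list.

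Among the 19 matched genes of the whole cys-loop family, nAChRbeta1 ranked first in both libraries by deposited RPKM. Ranks by coding length were not computed for this family. The next places were held by the glutamate-gated chloride channel gene GluClalpha, at 71.5 RPKM and 60.1 RPKM, and by the GABA receptor gene Rdl, at 52.1 RPKM and 49.6 RPKM. nAChRalpha7 followed with rank 4 in both libraries. nAChRalpha3 had rank 18 in the control library and rank 17 in the sucralose library, and the one gene below it in both was CG6927, with 3 and 5 reads.

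Of 12 other cys-loop genes, 10 were matched (pHCl-1 and pHCl-2 were not) and 9 passed the floor. Over all genes past the floor, 50.4% were below 0 and 4.12% passed 1.5-fold downward. Among the 9 cys-loop genes over it, 8 were below 0 and 1 passed 1.5-fold, downward. That gene was the GABA receptor subunit gene Grd, with 311 and 189 reads, a fold of 0.596 (0.495 to 0.717), and 27.5% of its exon bases are shared with a gene on the opposite strand. GluClalpha was at 0.837 (0.793 to 0.883), close to nAChRalpha7, and Rdl at 0.949 (0.910 to 0.989). The GABA receptor subunit gene Lcch3 was at 0.769 (0.675 to 0.875), although genes on the opposite strand overlap 31.3% of its exon bases. The histamine channel gene HisCl1 was at 0.946 (0.809 to 1.11), and another histamine channel gene, ort, at 0.726 (0.591 to 0.890). The 1 gene above 0 among the 9 was alka, at 1.18 (1.03 to 1.34). The reads of the 10 matched genes summed to a fold of 0.897 (0.872 to 0.924), and the interval overlaps that of the nicotinic subunits (0.896 to 0.939).

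**Figure D5:**
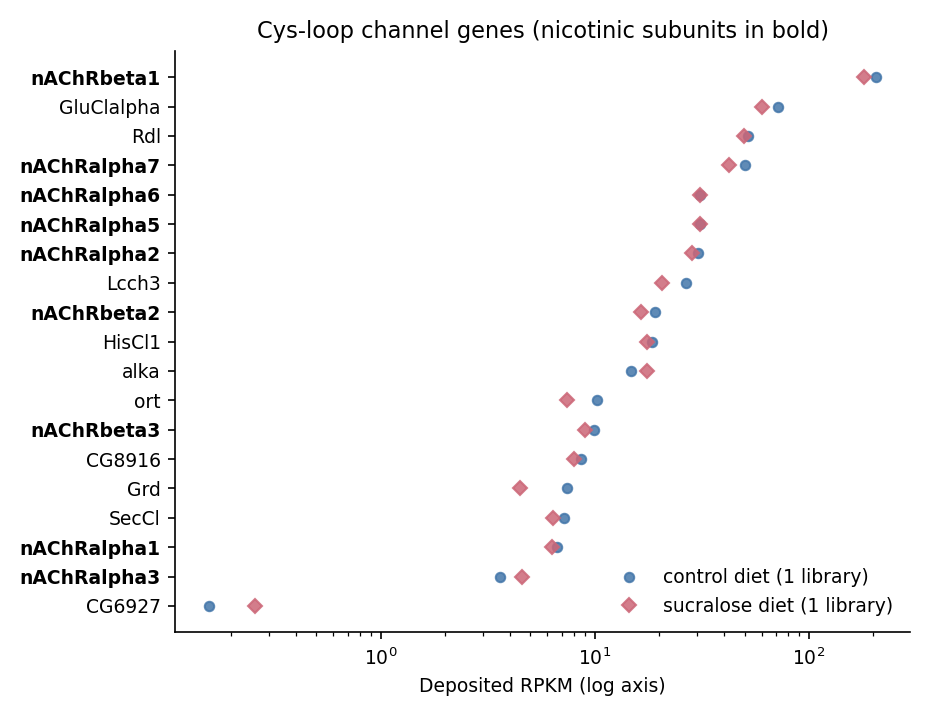
Deposited RPKM on a log axis for the 19 matched cys-loop channel genes, with 1 point per library and nicotinic subunits in bold. nAChRbeta1 stands above all others at 206 RPKM and 181 RPKM, and nAChRalpha3 lies near the bottom at 3.59 RPKM and 4.55 RPKM.

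With 2 libraries, likeness between genes is only likeness in level. By the distance of log2 deposited RPKM over both libraries, GluClalpha (distance 2.20) and Rdl (2.72) were the muscarinic or other cys-loop genes nearest to nAChRbeta1. Both were several-fold lower on that scale. Their deposited models hold 4014 and 8589 bases, against longest coding sequences of 1389 and 1824. For nAChRbeta1 these lengths are 2460 and 1563 bases, so the gap depends on the length used. The genes of those lists nearest to nAChRalpha3 were Grd (1.05) and the chloride channel gene SecCl (1.12).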

How the data were processed

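Per the labels' protocols, head RNA was isolated with Trizol and sequenced from standard Illumina libraries. The authors deposited 1 table per library. Per the file headers, its count column holds unique reads per gene, and these counts sum to the total in the header. The authors' deposited RPKM was recovered from count, length and total for every gene. The deposited coverage is taken from its name as the percent of gene model bases with reads. Aligner, build, annotation and strandedness: not given in the sources used here.

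Symbols were matched by FlyBase identifier, and 496 of 12083 listed identifiers had no match (6.07% and 6.12% of reads). Library sizes were adjusted by TMM factors (0.998 and 1.002) from edgeR 4.0.16 under R 4.3.3. A difference is the sucralose minus the control value of log2(CPM + 0.5). A fold divides the scaled sucralose count by the scaled control count, with a 95% Clopper-Pearson interval conditional on their sum. Levels have exact Poisson intervals, and level ratios compare reads per length. The intervals cover counting error only and treat each read as independent. PCR copies of the same molecule are not independent, so the intervals may be too narrow even for counting error. Exon overlap, coding length, transcript length, chromosome arms and the gaps between genes came from BDGP6.54, which may not be the build of the deposited tables. The fold functions were tested on simulated independent Poisson counts, the model that the intervals assume. That test checks the code only and says nothing about the spread between real libraries. Python 3.11.15, pandas 2.3.3, numpy 2.4.6, SciPy 1.17.1 and matplotlib 3.10.9 did the rest.

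The members and lists were chosen with earlier results of these data known. Named were all 10 members, list genes past 1.5-fold, otherwise up to 4 abundant genes per list, and the most abundant and most different cell type markers. Further list genes and markers were named after their values were seen, to show both directions. Alternatives were total-count, median-ratio and upper-quartile scaling, pseudocounts of 0.1 and 5 CPM, no floor or a floor of 200 reads, covered length, and levels scaled to a common sum. Chosen after seeing the data were coding and transcript length, scaling by neuronal markers or without the other marker lists, and leaving out nAChRbeta1 or nAChRbeta3. The lengths of RefSeq proteins were not used here.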

Additional observations from a re-analysis of the deposited data

How the results depend on the processing

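With 1 library per diet, the variation between flies and preparations is unknown. No paired analysis was possible because each diet has 1 library. No subunit passed 1.5-fold under any of the 9 alternatives run for that count. Of 81 recomputed single differences, 79 stayed within the subunit's counting interval. The exceptions came with scaling by neuronal marker reads, which put nAChRalpha5 at 0.068 (log2) and nAChRbeta1 at -0.12, and the subunit sum at a fold of 0.968. That scale depends on the reads of nrv3. The family median lay between -0.10 and -0.02. Without nAChRbeta1 the summed fold was 0.942. Coding length kept 3 of 9 subunits in place in each library. It gave nAChRbeta1 39.12% (control) and 37.47% (sucralose) of the sum and the alpha subunits 53.59% and 55.55%. With the longest transcript these were 56.12% and 54.64%, and 36.03% and 37.65%. The shares moved with the length used as divisor. Counts of all genes past 1.5-fold moved with the pseudocount of 5 CPM (61 higher, 206 lower) and without a floor (459 and 695).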
